A study of Mus musculus with 6 samples.

Results

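Aquaporins are channel proteins that let water, and in some members glycerol and other small solutes, cross cell membranes along osmotic gradients. In the lacrimal gland (LG), acinar and ductal cells pump ions into the lumen and water follows through these channels into the tear fluid. The genes described here are the rows of the deposited table whose gene name starts with Aqp and a number. There were 6 of them among 12491 protein-coding genes, namely Aqp1, Aqp3, Aqp4, Aqp5, Aqp8 and Aqp9. Other aquaporin genes were not analysed here.

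Poly(A) RNA of the LG of C57BL/6 mice was sequenced in 3 T2DM and 3 vehicle libraries. T2DM mice received a high-fat diet (HFD) with streptozotocin (STZ), a toxin of the insulin-producing cells, and stayed on the diet until collection, whereas vehicle mice were fed normal chow and injected with citrate buffer, so diet and STZ cannot be told apart. By the sample labels all mice were 24 weeks old, while the study's methods count that time from the last STZ injection. Only male mice were used, and neither source tells if glands of several mice were pooled for a library, so p-values measure only how far these libraries spread. Levels are FPKM, fragment numbers scaled to the length of the gene and to the total of the library. FPKM hold no read numbers, so the depth of each library is unknown from the table.

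Transcripts of the LG, such as the odorant-binding protein gene Obp1a at 62649 to 78388 FPKM, were abundant in every library. Vehicle replicate 1 stood apart in salivary gland transcripts. The summed level of 5 salivary markers was 2146 FPKM in that library, 10.4 and 6.18 FPKM in vehicle replicates 2 and 3, and 0.394 to 1.78 FPKM in the T2DM libraries, in which Smr3a, Prb1 and Prpmp5 were listed at 0. The fold change of every aquaporin is therefore given with and without this library. Most genes shifted slightly upward in T2DM: over the 12135 genes tested, the median log2 fold change was 0.16, and it was 0.02 once libraries were scaled by the median of ratios. The fold changes of single genes have to be set against these medians.

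All 6 members carry the signature of the family. Aquaporins fold so that a pair of short helices meets in the middle of the pore, and each of these helices starts with asparagine, proline and alanine, the NPA motif. The codons of this motif were found 2 times in the coding sequence of each member. The stretches below show this shared core in 5 members, from GENCODE M21 transcripts, 5′ to 3′ with the NPA codons in capitals and 9 bases on either side.
Aqp5, first motif: ggccacatcAATCCGGCCattactctg
Aqp5, second motif: tgttccatgAACCCAGCCcgatctttc
Aqp8, first motif: ggacacttcAACCCTGCTgtgtcgctg
Aqp8, second motif: gcctgcatgAACCCTGCTcgtgccttt
Aqp1, first motif: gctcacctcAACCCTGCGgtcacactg
Aqp1, second motif: tgcggtatcAACCCTGCCcggtcattt
Aqp9, first motif: ggccacatcAACCCAGCGgtgtctttt
Aqp9, second motif: tgtgccatgAACCCTGCTcgagacctc
Aqp3, first motif: gcccacttgAACCCCGCTgtgaccttc
Aqp3, second motif: tatgccgtcAACCCTGCCcgtgacttt

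After the second motif, the second codon was gac, for aspartate, in Aqp3 and Aqp9 and a different codon in Aqp1, Aqp5 and Aqp8. Aqp3 and Aqp9 are the aquaglyceroporins of the set, the channels that also pass glycerol, and an aspartate at this place is a known mark of that branch. On GRCm38 the second stretch lies at chr15:99593261-99593287 (plus strand) in Aqp5, at chr7:123466602-123466628 (plus strand) in Aqp8, at chr6:55345828-55345854 (plus strand) in Aqp1, at chr9:71122841-71122867 (minus strand) in Aqp9 and at chr4:41093832-41093858 (minus strand) in Aqp3, each within 1 coding exon. No stretch of 31 bases was shared between transcripts of different members, and at most 0.728% of the stretches of a member (Aqp3) occurred in transcripts of other genes. The deposited table places Aqp5 at chr15:99590849-99594829, Aqp8 at chr7:123462291-123468004, Aqp1 at chr6:55336432-55348555, Aqp9 at chr9:71110659-71168682, Aqp4 at chr18:15389394-15403684 and Aqp3 at chr4:41092722-41098183. Aqp9 and Aqp4 overlap genes on the opposite strand (Gm47268 and Gm32511, and AC133525.2). The kit was stranded, but whether strand was used in the estimate is not given in the sources used here, so reads of these partners may be included.

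Ranked by level, the family was led by Aqp5, the channel of the apical membrane through which water leaves acinar and ductal cells. Its mean over the 6 libraries was 126 FPKM and it ranked between 169 and 256 among the 12491 genes of a library. Aqp8, a channel for water, ammonia and hydrogen peroxide, was second at 38.0 FPKM. Aqp1, the channel of endothelium and red cells, followed at 6.61 FPKM, then Aqp9 at 3.04 FPKM, Aqp4, a water channel of basolateral membranes and of astrocytes, at 1.16 FPKM and Aqp3, a channel of basolateral and basal epithelial membranes, at 0.885 FPKM. FPKM are per length, so levels of different genes can be compared. Neighbours in this order did not overlap in either group, except for Aqp4 and Aqp3, whose ranges overlapped in both groups. Aqp5 was 2.6 to 2.79 times Aqp8 in vehicle and 3.95 to 4.23 times in T2DM libraries, and Aqp1 was above Aqp9 in all 6 libraries, by 1.19 times in vehicle replicate 1 and by up to 3.95 times in a T2DM library.

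**Figure D1:**
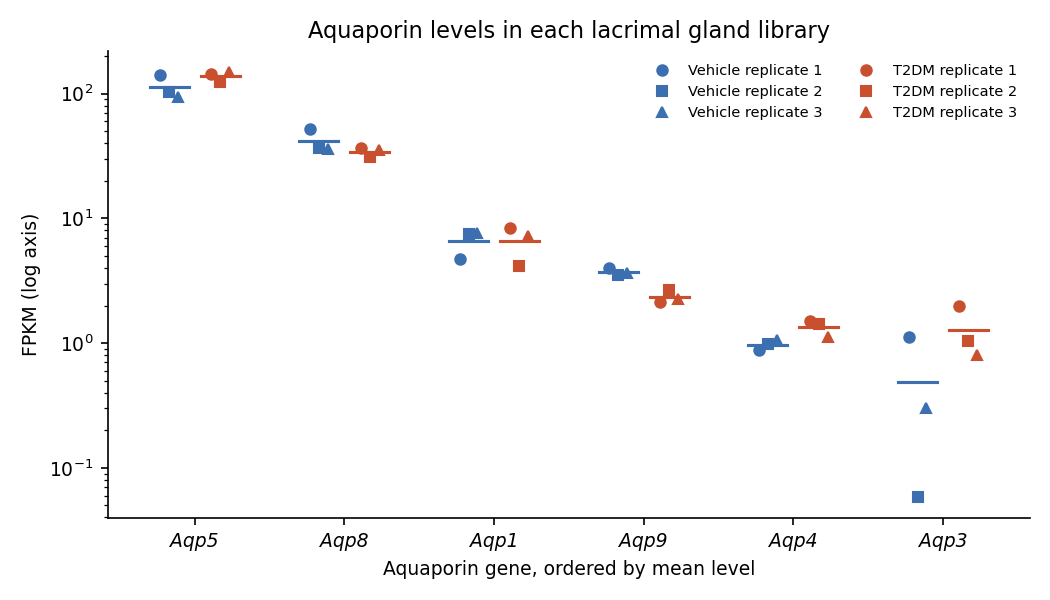
FPKM (log axis) of the 6 aquaporin genes, ordered by mean level, in 3 vehicle (blue) and 3 T2DM (red) libraries; symbols are replicates and lines are group means. Levels span from 0.0588 FPKM (Aqp3, vehicle replicate 2) to 149 FPKM (Aqp5, T2DM replicate 3), and only Aqp9 and Aqp4 separate the groups.

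Between T2DM and vehicle LGs, 1 aquaporin fell, none rose, and 5 did not pass the test. The test was limma on log2(FPKM + 1) over 12135 genes with Benjamini-Hochberg adjustment, which called 1.7% of all genes lower and 10.5% higher at an adjusted p under 0.05. All 6 members passed the low-value filter, a group mean of 0.5 FPKM or more, but Aqp3 did so only through the T2DM group. At an unadjusted p under 0.05, limma gave none higher and 1 lower, against 28.5% and 4.57% of all genes. A per-gene linear model without moderation gave 1 higher (Aqp4) and 1 lower (Aqp9), against 24.4% and 4.02% of all genes. At the thresholds of the study's methods, an unadjusted p of 0.05 and a fold of 1.5, none of the 6 was called, against 6.03% of all genes higher and 0.939% lower. That fold was taken here on log2(FPKM + 1). The members did not share a direction: the median log2 fold change of the 6 was 0.11, against 0.16 for all genes tested.

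Aqp9, an aquaglyceroporin best known from hepatocytes and leukocytes, was the member that fell. Vehicle replicates 1, 2 and 3 had 3.98, 3.50 and 3.66 FPKM, and T2DM replicates 1, 2 and 3 had 2.14, 2.69 and 2.26 FPKM. Each T2DM value was lower than each vehicle value, a separation that 6.1% of the tested genes showed. The log2 fold change was -0.49 (standard error 0.11, 95% interval -0.73 to -0.25, adjusted p = 0.0311 from limma), and on the FPKM scale the T2DM mean was 0.636 times the vehicle mean. Scaling by the median of ratios gave -0.62 and an adjusted p of 0.0237. The call was lost without any one of 5 libraries: the adjusted p from limma was 0.0699, 0.0738 and 0.0940 without vehicle replicate 1, 2 or 3, 0.0880 and 0.0653 without T2DM replicate 1 or 3, and 0.0399 without T2DM replicate 2, while the log2 fold change stayed between -0.56 and -0.44, at -0.45 without vehicle replicate 1. The per-gene linear model gave an adjusted p of 0.0962.

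Markers of leukocytes did not pass the test in either direction. None of 8 tested macrophage markers and none of 4 tested neutrophil markers passed limma's adjusted p. At an unadjusted p, 1 and 2 of them were higher by limma, against 28.5% of all genes. None were higher by the linear model, against 24.4% of all genes. The summed macrophage markers were at 243, 505 and 428 FPKM in vehicle and at 338, 395 and 390 FPKM in T2DM replicates 1, 2 and 3. The groups overlapped only through vehicle replicate 1, as each T2DM sum was below those of vehicle replicates 2 and 3. Lyz2 was the largest part of this sum in every library. The summed neutrophil markers ranged from 2.90 to 7.02 FPKM in vehicle and from 5.07 to 13 FPKM in T2DM libraries, with S100a8 and Retnlg listed at 0 in vehicle replicate 1. Their part in the level of Aqp9 was not tested. In bulk RNA, fewer cells of a type and less RNA per cell cannot be told apart.

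Vehicle replicates 1, 2 and 3 had 142, 103 and 93.6 FPKM of Aqp5, and T2DM replicates 1, 2 and 3 had 144, 124 and 149 FPKM. Vehicle replicate 1, the library with the salivary transcripts, was the high value of its group and lay within the T2DM range, so the groups overlapped. The log2 fold change was 0.32 (standard error 0.16, 95% interval -0.05 to 0.69, adjusted p = 0.197 from limma). Without vehicle replicate 1 it was 0.50 with an adjusted p of 0.0513 and the groups no longer overlapped. When scaled by the median of ratios it was 0.14. Salivary acini also express Aqp5, and the part of the salivary transcripts in this value was not tested.

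Aqp8 showed the same high value of vehicle replicate 1. It was at 52.4, 36.8 and 36.0 FPKM in vehicle and at 36.3, 31.1 and 35.3 FPKM in T2DM replicates 1, 2 and 3, and the groups overlapped. The log2 fold change was -0.26 (standard error 0.15, 95% interval -0.61 to 0.09, adjusted p = 0.264 from limma), and it was -0.09 without vehicle replicate 1 and -0.44 when scaled by the median of ratios.

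Aqp4 was at 0.887, 0.985 and 1.05 FPKM in vehicle and at 1.5, 1.41 and 1.12 FPKM in T2DM replicates 1, 2 and 3. Each T2DM value was higher than each vehicle value, a separation that 33.8% of the tested genes showed. The log2 fold change was 0.25 (standard error 0.11, 95% interval -0.00 to 0.50, adjusted p = 0.158 from limma), against 0.16 for all genes. It was 0.21 without vehicle replicate 1 and 0.15 when scaled by the median of ratios. At this low level it depended on the pseudocount, with 0.42 for a pseudocount of 0.1 and 0.32 for 0.5 in place of 1. On the FPKM scale the T2DM mean was 1.38 times the vehicle mean. Skeletal muscle also expresses Aqp4. Of 13 muscle markers 3 had a row, with a sum of 6.13 to 8.84 FPKM in vehicle and of 12.7 to 22.4 FPKM in T2DM libraries. Most of that sum was Mb, the oxygen carrier myoglobin, which rose from 7.29 ± 1.30 to 14.8 ± 2.6 FPKM (SD, n = 3 each). The other markers with a row were low. Ckm missed the low-value filter, at 0.0454, 0.179 and 0.0325 FPKM in vehicle and 0, 0.280 and 1.19 FPKM in T2DM replicates 1, 2 and 3. Myl2, a slow-muscle myosin light chain, was listed at 0 in all vehicle libraries. It was at 0.235, 0.438 and 4.48 FPKM in T2DM replicates 1, 2 and 3 (adjusted p = 0.170 from limma), so it was high in replicate 3 only, the T2DM library with the lowest Aqp4. Of 4 Schwann cell markers, 2 were tested and neither passed by limma, adjusted or unadjusted, nor by the linear model at an unadjusted p, and their summed level was 0.889 to 1.36 FPKM in vehicle and 1.37 to 2.83 FPKM in T2DM libraries. The part of muscle or nerve transcripts in the level of Aqp4 was not tested.

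Aqp3 was the least even member. It was at 1.11, 0.0588 and 0.299 FPKM in vehicle and at 1.99, 1.05 and 0.802 FPKM in T2DM replicates 1, 2 and 3, and vehicle replicate 1 again lay within the T2DM range. The log2 fold change was 0.64 (standard error 0.28, 95% interval -0.01 to 1.29, adjusted p = 0.156 from limma), 0.92 with an adjusted p of 0.0628 without vehicle replicate 1, and 0.43 without vehicle replicate 2 or T2DM replicate 1. With a pseudocount of 0.1 in place of 1 it was 1.6. Of 6 tested basal and myoepithelial markers, 2 rose and none fell, against 10.5% and 1.7% of all genes. The 2 were the keratin Krt14 and the smooth muscle actin Acta2. None of the 6 passed when scaled by the median of ratios, where 4.14% of all genes were called higher and 3.57% lower. The summed level of these markers was 116 to 128 FPKM in vehicle and 152 to 190 FPKM in T2DM libraries, and their part in the level of Aqp3 was not tested.

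Aqp1 was at 4.73, 7.45 and 7.68 FPKM in vehicle and at 8.45, 4.18 and 7.17 FPKM in T2DM replicates 1, 2 and 3. The low values were those of vehicle replicate 1 and T2DM replicate 2, and the groups overlapped fully. The log2 fold change was -0.02 (standard error 0.25, adjusted p = 0.958 from limma), with a 95% interval of -0.60 to 0.55 that leaves room for changes of either sign. Without vehicle replicate 1 it was -0.22, with an adjusted p of 0.566.

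**Figure D2:**
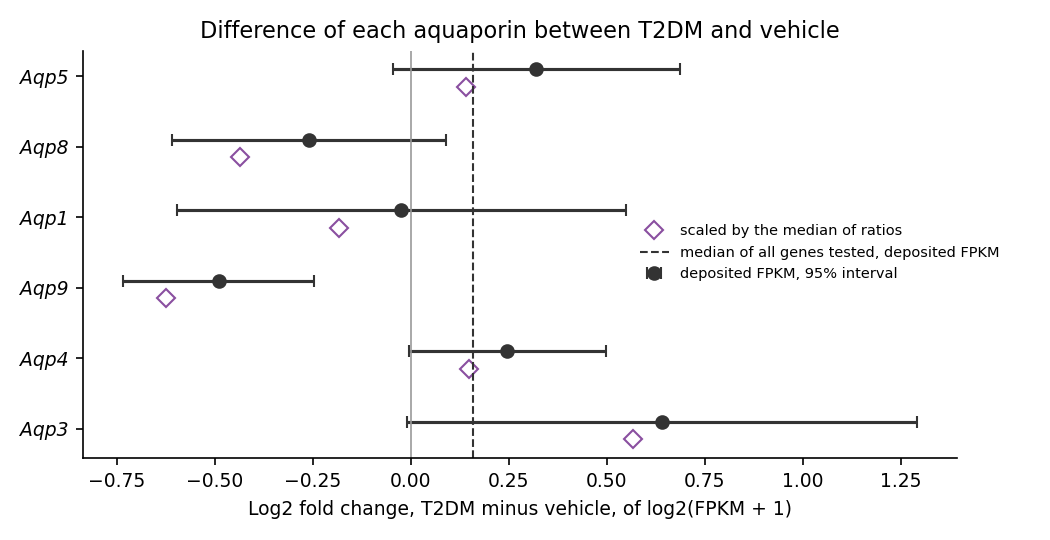
Log2 fold change (T2DM minus vehicle, of log2(FPKM + 1)) of each aquaporin; black points and bars give limma's estimate and 95% interval on deposited FPKM, diamonds the scaled estimate (median of ratios), and the dashed line the median of all genes tested (0.16). Only the interval of Aqp9 lies clear of 0, from -0.73 to -0.25, and scaling moved all 6 estimates down.

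The make-up of the family was compared next. The summed level of the 6 aquaporins was 205, 151 and 142 FPKM in vehicle and 194, 165 and 196 FPKM in T2DM replicates 1, 2 and 3, which overlapped (two-sided exact permutation p = 0.4). Shares and ratios within a library do not depend on how libraries are scaled. Aqp5 held 69.2%, 67.8% and 65.8% of this sum in vehicle and 74.0%, 75.5% and 76.2% in T2DM libraries. The groups did not overlap, with 67.6% ± 1.7 in vehicle and 75.2% ± 1.1 in T2DM (SD, n = 3 each, two-sided exact permutation p = 0.1, the smallest that 3 against 3 allow). The ratio of Aqp5 to Aqp8 was 2.70, 2.79 and 2.6 in vehicle and 3.95, 4.0 and 4.23 in T2DM replicates 1, 2 and 3. Vehicle replicate 1 was high in both genes but not in their ratio, which was 2.70 ± 0.09 in vehicle and 4.06 ± 0.15 in T2DM (SD, n = 3 each, two-sided exact permutation p = 0.1). This pair was singled out after its values were seen. Aqp5 and Aqp8 made up most of the summed level, so the Aqp5 share and this ratio largely describe the same difference. Of all 15 pairs of aquaporins, 6 had ratios that did not overlap between groups, where 33.1% of all pairs of tested genes above 0 in every library did not. The smallest exact permutation p adjusted over the pairs was 0.25. Those 6 were Aqp5 or Aqp4 over Aqp8, Aqp5 or Aqp4 over Aqp9, and Aqp3 over Aqp8 or Aqp9.

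Relative to epithelial genes, the direction of Aqp5 depended on the gene it was set against. Of 7 tested epithelial markers 5 rose (4 when scaled by the median of ratios), among them the adhesion gene Epcam and the claudin genes Cldn3 and Cldn7, and none fell. Of all genes, 10.5% were called higher on the deposited scale and 4.14% when scaled. Of 5 duct markers 4 rose (3 when scaled), with Clu, which encodes the chaperone clusterin, from 37.5 ± 4.4 to 126 ± 12 FPKM (SD, n = 3 each). The ratio of Aqp5 to the summed epithelial markers was 0.181, 0.136 and 0.116 in vehicle and 0.114, 0.116 and 0.148 in T2DM replicates 1, 2 and 3, which overlapped (two-sided exact permutation p = 0.6). The ratio of Aqp5 to the summed duct markers was 3.31, 2.09 and 1.87 in vehicle and lower, at 0.743, 0.830 and 1.06, in T2DM libraries (p = 0.1 by the same exact test). Against acinar genes the direction differed from gene to gene. The ratio of Aqp5 to Bhlha15, a transcription factor of acinar cells, was higher in T2DM, going from 0.50, 0.42 and 0.429 in vehicle to 0.692, 0.697 and 0.676 in T2DM libraries (p = 0.1 by the same exact test). The ratio to Lpo, a secreted peroxidase, was also higher, from 0.138 ± 0.025 to 0.245 ± 0.017 with no overlap. The ratio to Ltf, the secreted iron-binding protein lactoferrin, was lower, from 0.222 ± 0.024 to 0.129 ± 0.060 (SD, n = 3 each). For Ltf the groups nearly met, at 0.1998 in vehicle replicate 3 and 0.1981 in T2DM replicate 3. The ratio to Prol1 was lower too, again with no overlap. Of all pairs of tested genes above 0 in every library, 33.1% had ratios that did not overlap. The ratios to Spdef, to Obp1a and to the summed acinar markers, nearly all of which is Obp1a, overlapped. The ratios to the duct and acinar markers were added after the data were seen. Of the 6 acinar markers, Ltf rose and Lpo fell, against 10.5% of all genes called higher and 1.7% lower. Bhlha15 was at 248 ± 33 FPKM in vehicle and 202 ± 22 FPKM in T2DM (SD, n = 3 each, adjusted p = 0.146 from limma). When scaled by the median of ratios, Bhlha15 was called lower as well, with a log2 fold change of -0.47 and an adjusted p of 0.0469 from limma. On that scale 3.57% of all genes were called lower.

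**Figure D3:**
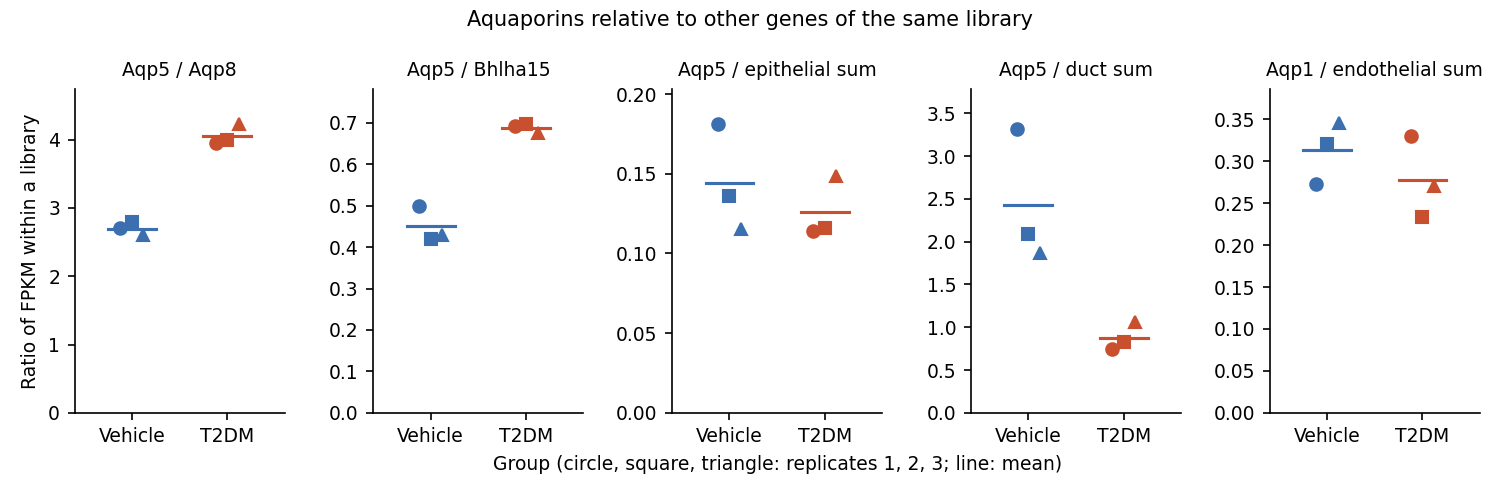
Ratio of FPKM within each library, on axes that start at 0, for Aqp5 over Aqp8, Bhlha15, summed epithelial markers and summed duct markers, and for Aqp1 over summed endothelial markers; circles, squares and triangles are replicates 1, 2 and 3 and lines are means. Aqp5 over Aqp8 goes from 2.70 to 4.06 and Aqp5 over the duct sum from 2.42 to 0.877 with no overlap, whereas the epithelial and endothelial panels overlap.

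Aqp1 was set against the vessels. None of 12 endothelial markers passed limma's adjusted p. Before adjustment, limma called 2 of the 12 higher, while its share over all genes was 28.5%. The linear model before adjustment also called 2 higher, while its share over all genes was 24.4%. The summed level of the 12 markers was 17.3, 23.3 and 22.2 FPKM in vehicle and 25.6, 17.9 and 26.5 FPKM in T2DM replicates 1, 2 and 3. The lowest sums were thus those of vehicle replicate 1 and T2DM replicate 2, the libraries with the lowest Aqp1. The ratio of Aqp1 to this sum was 0.273, 0.320 and 0.345 in vehicle and 0.330, 0.234 and 0.270 in T2DM libraries, which overlapped (two-sided exact permutation p = 0.4). Red cell transcripts differed: of 5 tested erythroid markers the globin genes Hba-a1, Hba-a2 and Hbb-bs fell, against 1.7% of all genes. The summed level of the 5 markers was 351 to 419 FPKM in vehicle and 196 to 317 FPKM in T2DM libraries. None of 5 fibroblast markers passed by limma, adjusted or unadjusted, or by the linear model at an unadjusted p, and their sums were 47.6 to 79.3 FPKM in vehicle, with vehicle replicate 1 the lowest, and 66.9 to 79.2 FPKM in T2DM libraries. The ratio of Aqp1 to the summed fibroblast markers was 0.098 ± 0.001 in vehicle and 0.092 ± 0.034 in T2DM (SD, n = 3 each). The groups overlapped (two-sided exact permutation p = 0.7), and this ratio was added after the data were seen. The part of red cells or fibroblasts in the level of Aqp1 was not otherwise tested.

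Fluid secretion also needs ion transport, which sets up the osmotic gradient. Of 18 tested genes for ion transport and its calcium control, 9 rose, none fell and the rest missed limma's adjusted p, against the 10.5% of all genes that were called higher. At an unadjusted p, 12 were higher and none lower by limma, against 28.5% and 4.57% of all genes. The linear model gave 11 higher, against 24.4% of all genes. The list median log2 fold change was 0.49, against 0.16 for all genes and 0.11 for the aquaporins. Slc12a2, the basolateral cotransporter that loads acinar cells with chloride, rose from 21.1 ± 2.4 to 54.7 ± 16.2 FPKM (SD, n = 3 each, log2 fold change 1.30). Ano1, the calcium-activated chloride channel of the apical membrane, rose from 10.2 ± 1.4 to 22.5 ± 2.9 FPKM. Itpr2, a calcium release channel, rose from 1.25 ± 0.06 to 3.10 ± 0.89 FPKM. The count of 9 was 5 when scaled by the median of ratios, against 4.14% of all genes. It was 0 by the per-gene linear model with adjusted p, which called no gene at all. It was 5, 2 and 0 without vehicle replicate 1, 2 or 3, where 464, 203 and 25 of all genes were called higher. It was 4, 6 and 6 without T2DM replicate 1, 2 or 3, where 260, 760 and 886 of all genes were called higher. A difference between these genes and the aquaporins was not tested.

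Of 14 genes that bind aquaporins or move and regulate them, 2 rose, 1 fell and 11 passed in neither direction by limma's adjusted p, with 10.5% of all genes called higher and 1.7% lower. When scaled by the median of ratios, 1 rose and 1 fell, against 4.14% and 3.57% of all genes. Ezr, which encodes the membrane linker ezrin, rose from 18.3 ± 0.9 to 37.8 ± 9.9 FPKM, and Prkacb, a catalytic subunit of protein kinase A, from 2.96 ± 0.06 to 4.49 ± 0.58 FPKM (SD over the 3 libraries of a group). Rab27b, a small GTPase of secretory vesicles, fell from 8.30 ± 0.71 to 6.17 ± 0.19 FPKM. Pip, whose product binds Aqp5 in the mouse LG, was at 2896 ± 151 FPKM in vehicle and 2673 ± 188 FPKM in T2DM. Trpv4, a calcium channel of the response to swelling, was at 0.754 ± 0.080 and 1.40 ± 0.52 FPKM, with an adjusted p of 0.117 from limma.

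**Figure D4:**
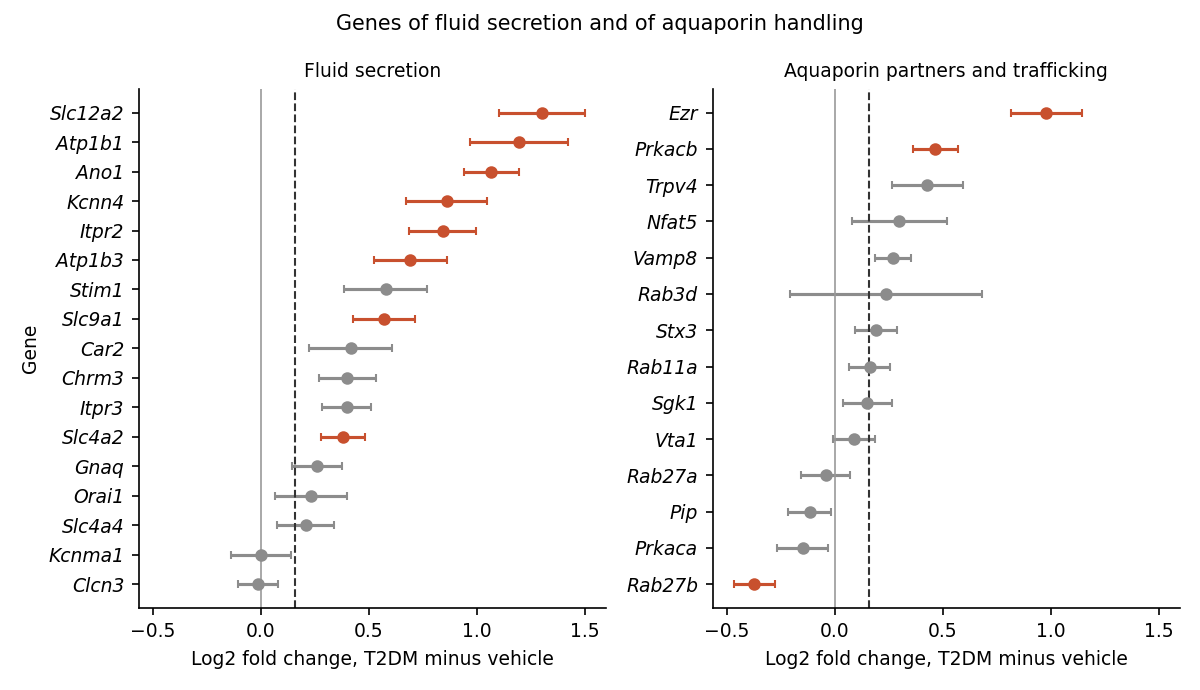
Log2 fold change (T2DM minus vehicle) with limma's standard error for 17 of the 18 tested genes of fluid secretion and 14 genes of aquaporin partners and trafficking; red marks an adjusted p under 0.05, grey the others, and the dashed line the median of all genes tested (0.16). Slc12a2 (1.30) leads the first panel and Ezr (0.98) the second, and Rab27b (-0.37) is the one red point below 0.

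Over the 6 libraries, the gene with the profile most like that of Aqp5 was Mlph, which encodes melanophilin, an effector of Rab27a. Its centred log2(FPKM + 1) profile differed from that of Aqp5 by a root mean square of 0.03, the smallest among 10576 genes with a mean of at least 1 FPKM. Mlph was at 78.6, 58.2 and 51.6 FPKM in vehicle and at 80.6, 72.5 and 80.7 FPKM in T2DM replicates 1, 2 and 3, so that vehicle replicate 1 was high here too. Rundc3b (0.05) and Wdyhv1 (0.06), an amidase of N-terminal glutamine, came next. The profile of Aqp9 was nearest to those of Agr2 (0.04), a disulfide isomerase of the endoplasmic reticulum, Bet1 (0.04), a SNARE of transport from there to the Golgi, and Cdk5rap3 (0.04). Agr2 was at 572 ± 44 FPKM in vehicle and 418 ± 29 FPKM in T2DM, and Bet1 at 26.4 ± 1.0 and 17.7 ± 1.2 FPKM (SD, n = 3 each). These 6 points share their libraries and scale, so the likeness describes these libraries.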

How the data were processed

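LG RNA of 3 T2DM and 3 vehicle libraries was analysed, grouped by the sample titles. The authors deposited gene-level FPKM, made by cutadapt trimming, HISAT2 alignment to GRCm38, StringTie estimates and Ballgown summaries, with no further scaling stated between libraries. The submitters' processing notes name human builds, but the gene IDs are of mouse. FPKM hold no read numbers, so errors are SDs between libraries.

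Genes whose mean reached 0.5 FPKM in either group (12135 of 12491) were fitted with limma 3.58.1 in R 4.3.3 on log2(FPKM + 1), with a mean-variance trend, no covariate and Benjamini-Hochberg adjustment. The fit was checked on simulated libraries with changes larger than those of the aquaporins in this fit, so the check does not cover changes of their size. The study's own test was a per-gene linear model at an unadjusted p of 0.05 and a fold of 1.5; it was run as an alternative. Ratios within a library were tested with exact permutation over libraries. Alternatives were other filters, pseudocounts, scalings and tests, a replicate block and removal of each library.

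The text names all aquaporins, up to 4 members of each of 15 gene lists by smallest p, the 3 genes with the profile nearest to Aqp5 and Aqp9, and, outside this rule and with values already seen, Bhlha15, Obp1a, Pip, Rab3d, Trpv4, Myl2 and marker genes listed at 0. The values of 1 gene of the fluid secretion list are not reported here. Members and lists were chosen with earlier results of these data known. Gene models and sequences came from GENCODE M21 (GRCm38), which places 4 of the 6 aquaporins where the table does.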

Additional observations from a re-analysis of the deposited data

How the results depend on the processing

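No aquaporin was higher in T2DM at the adjusted p under any alternative run, including removal of each library (0 to 0). The count of 1 lower, Aqp9, was 0 with the per-gene linear model at an adjusted p, 0 at the thresholds of the study, 0 with limma and a replicate block, and 0 to 1 when 1 library was left out. At the study's thresholds Aqp9 missed the fold of 1.5 because the fold was taken on log2(FPKM + 1), where it was at -0.49. That scale gave the study's own counts over all genes. With a pseudocount of 0.1 its log2 fold change was -0.64. Without a pseudocount its T2DM mean was 0.636 times its vehicle mean, which is beyond a fold of 1.5. With the block its adjusted p was 0.0695, and over all 16 alternatives it ranged from 0.0237 to 0.0962. Replicate numbers did not pair the libraries (correlations of same-numbered deviations were 0.0322, 0.016 and -0.0022), and the block took all genes called from 1271 higher and 206 lower to 551 and 98.

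Aqp1 changed sign to 0.0878 when libraries were scaled without the 10 most abundant genes, and ranged from -0.22 to 0.23 with 1 library left out. The T2DM minus vehicle difference of the summed aquaporin FPKM was 18.7, turned to -2.79 when scaled by the median of ratios, and was 6.84 to 38.0 with 1 library left out. The difference of the log2 ratio of Aqp5 to the epithelial markers was -0.18, turned to 0.618 against Bhlha15, 0.848 against Lpo, 0.276 against Obp1a and 0.268 against the summed acinar markers, and was -0.33 to -0.0045 with 1 library left out. The rise of the Aqp5 share was 6.75 to 8.44 percentage points, that of the log2 ratio of Aqp5 to Aqp8 was 0.56 to 0.61, and the difference of Aqp1 to the endothelial markers was -0.31 to -0.06 with 1 library left out. By the exact sign-flip over pairs (replicate block), whose smallest p is 0.25, the Aqp5 share gave 0.25.

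Over all genes, the split of 1271 higher and 206 lower was 500 and 431 when scaled by the median of ratios, 3346 and 172 without the 10 most abundant genes in the scale, 732 and 114 at the study's thresholds, 0 and 0 with the linear model at an adjusted p, and 25 to 886 higher and 16 to 130 lower with 1 library left out. The cause of these differences was not tested. The depth behind the low levels of Aqp3 and Aqp4 is unknown.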

Other observations

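Of 9 listed adipocyte markers, 3 had a row, with a sum of 6.06 to 8.0 FPKM in vehicle and 5.54 to 6.47 FPKM in T2DM libraries. None passed limma's adjusted p, and 1 was higher (Lipe) and 1 lower (Cfd) at an unadjusted p by limma and none by the linear model. Of all genes, 28.5% were higher and 4.57% lower at an unadjusted p by limma. None of the 5 salivary markers passed limma's adjusted p either, with 1 lower (Smr3a) at an unadjusted p and none by the linear model. Rab3d, a GTPase of secretory granules, was at 25.7, 25.5 and 57.3 FPKM in vehicle and at 29.6, 26.9 and 78.0 FPKM in T2DM replicates 1, 2 and 3, high in replicate 3 of each group.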
